A study of Mus musculus with 6 samples.

Results

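The genes described here handle long-chain fatty acids on their way from the blood to mitochondrial oxidation: Lpl, Cd36, Slc27a1, Fabp3, Fabp4, Fabp5, Cpt1a, Cpt1b, Cpt2 and Acadl. The set is defined by function, and its genes were found by symbol. All 10 were among the 16964 genes listed in all 3 deposited count tables and passed the filter on low counts. RNA of female mice was sequenced in 6 libraries, with 2 for each of 3 tissues: the infrapatellar fat pad (fat that lies under the kneecap), the rectus femoris (a thigh muscle, hereafter muscle) and the Achilles tendon (hereafter tendon). The tissue of a library was read from the label that names 3 tissues, because the source label gives the fat pad for all 6.

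The series concerns letrozole, an inhibitor of aromatase, and its name appears in each fat pad title but in no muscle or tendon title. A tissue effect and a drug effect can therefore not be told apart wherever the fat pad is compared, and no treated and control libraries of 1 tissue could be set against each other. The titles of the fat pad and tendon libraries also carry the word combined, which is not explained. All 6 libraries share a batch label. No strain, age, dose or animal is given in the labels used here. The deposited TPM of each tissue is named as library 1 against library 2, and the labels do not say whether these 2 differed in treatment. They are taken as replicates here. The p-values set tissue differences against a spread estimated from all 6 libraries together. That spread may be technical, and whether it holds a treatment difference cannot be told.

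Long-chain fatty acids reach tissues mainly inside lipoproteins, from which lipoprotein lipase releases them at the capillary wall. Membrane proteins such as CD36 and FATP1 take them up, and small binding proteins carry them through the cytosol. To be burned, they are linked to carnitine by a carnitine palmitoyltransferase 1 on the outer mitochondrial membrane, passed inward, returned to coenzyme A by carnitine palmitoyltransferase 2, and then shortened by beta-oxidation. Fat cells use much of this machinery to store lipid, whereas muscle uses it for energy, and several steps have forms that are typical of one tissue or the other.

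Promoter windows from RefSeq on GRCm38.p6 matched 6 of the 10 genes in 8 windows, of which Slc27a1 had 3. Lpl, Fabp4, Fabp5 and Cpt1b had no entry. Each window runs from 250 bases before to 50 bases after a start site, and both strands were searched. The hexamer AGGTCA, the short site of many nuclear receptors including the PPAR proteins that govern fatty acid genes, was found in 2 of the 8 windows, those of Cd36 and Cpt1a, against 16.3% of all 32851 windows. A pair of AGGTCA copies 1 base apart was in none of the 8 and in 0.0396% of all windows. CANNTG, the E-box bound by muscle and other helix-loop-helix factors, was in 8 of 8 windows and in 72.3% of all. GGGCGG was in 6 of 8 and in 35.7% of all, and TATAAA in 0 of 8 and in 13.6% of all. The share of G and C bases was 43% in the Cd36 window and 56.3% to 70.3% in the others. The median of all windows was 52.7%, and the part of base composition in these matches was not tested. A match describes letters only.

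Sequences are shown for Cd36 and Cpt1a, the windows with the AGGTCA hexamer, and for Fabp3, a gene that was low in the fat pad and whose window lacked it. The windows of Acadl, Cpt2 and Slc27a1 lacked it too, and these genes were called higher in the fat pad in both comparisons. For each gene shown, the 250 bases before the start site are printed 5′ to 3′ on the strand of the gene. Capitals mark the hexamer in Cd36 and Cpt1a, read as TGACCT on the printed strand, and in Fabp3 the single E-box. The hexamer began 228 bases before the start site in Cd36 (chr5:17835897-17836146, minus strand) and 94 bases before it in Cpt1a (chr19:3323051-3323300, plus strand). The E-box of Fabp3 (chr4:130308488-130308737, plus strand) began 45 bases before the start site.
Cd36: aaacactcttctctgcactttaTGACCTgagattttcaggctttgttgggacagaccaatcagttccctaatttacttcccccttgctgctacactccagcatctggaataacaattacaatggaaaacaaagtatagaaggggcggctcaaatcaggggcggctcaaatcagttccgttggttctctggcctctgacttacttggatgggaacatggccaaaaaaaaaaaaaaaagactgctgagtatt
Cpt1a: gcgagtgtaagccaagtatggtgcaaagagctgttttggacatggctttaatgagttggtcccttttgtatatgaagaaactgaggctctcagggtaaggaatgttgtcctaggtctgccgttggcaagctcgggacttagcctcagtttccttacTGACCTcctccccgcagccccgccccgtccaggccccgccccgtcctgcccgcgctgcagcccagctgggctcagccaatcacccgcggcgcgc
Fabp3: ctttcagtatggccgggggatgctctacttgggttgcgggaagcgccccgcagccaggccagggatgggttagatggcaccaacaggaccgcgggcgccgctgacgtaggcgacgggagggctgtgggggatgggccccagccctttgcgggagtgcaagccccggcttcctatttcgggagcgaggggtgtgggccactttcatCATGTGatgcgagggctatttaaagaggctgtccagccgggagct

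Libraries held 56216295 to 106319037 counts. Levels below are normalised read counts, that is TMM-scaled CPM, with the SD of 2 libraries where a mean is given. The edgeR quasi-likelihood test over 15856 genes used the adjusted p of 0.05 as its threshold. Among all genes tested, the call was higher for 29.8% and lower for 29.6% in fat pad over muscle, for 27.2% and 31.4% in fat pad over tendon, and for 13.3% and 12.7% in tendon over muscle. The scaling bears on these splits, and so does the deposited table read. Between the libraries of muscle and of tendon the deposited TPM did not follow the counts, so limma on TPM changes more than the scaling. By total counts the median difference of all genes moved from 0.14 to 0.66 (log2; fat pad over muscle), from 0.10 to 0.83 (tendon over muscle) and from -0.01 to -0.23 (fat pad over tendon). The genes called higher and lower then numbered 6350 and 3420 in place of 4728 and 4698 for fat pad over muscle, and 5969 and 398 in place of 2110 and 2017 for tendon over muscle. With limma on the deposited TPM the same counts were 3027 and 5766 (fat pad over muscle), 1603 and 8106 in place of 4308 and 4972 (fat pad over tendon), and 4337 and 533 (tendon over muscle).

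Marker genes of the labelled tissues were present. The summed level of 10 adipocyte markers was 65726 and 72090 CPM (fat pad), 1359 and 1879 (muscle) and 3232 and 833 (tendon). That of 10 fast muscle markers was 301360 and 265834 CPM in muscle, 16379 and 64485 in tendon, and 137 and 117 in the fat pad, and that of 8 tenocyte markers was 18523 and 19182 in tendon against 2196 at most elsewhere. The tendon libraries thus held RNA of adipocyte and muscle marker genes in amounts that differed between them, and 8 slow muscle markers summed to 12832 and 6617 CPM there, against 178 at most in muscle and the fat pad. In the fat pad, 7 erythroid markers summed to 48726 and 15398 CPM and 7 neutrophil markers to 1803 and 247, against 422 and 6.40 at most in the other libraries. The part of these cells in the results was not tested, and in bulk tissue fewer cells of a type and less RNA per cell cannot be told apart.

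Levels of most genes of the set differed between the fat pad and muscle and between the fat pad and tendon. Fewer differed between tendon and muscle. Compared with muscle, all 10 genes were called in the fat pad: 8 were higher, beside 29.8% of all genes, and 2 were lower, beside 29.6%. Compared with tendon, 6 were higher, beside 27.2% of all genes, and 2 were lower, beside 31.4%, while Lpl and Cpt1a were not called. The 2 genes lower in the fat pad were Fabp3 and Cpt1b in both comparisons, which share the fat pad libraries. Between tendon and muscle only 3 genes were called, 1 higher (13.3% of all genes) and 2 lower (12.7%). The 10 genes had a median log2 fold change of 1.53 in fat pad over muscle, 1.70 in fat pad over tendon and 0.67 in tendon over muscle. The medians of all genes were 0.14, -0.01 and 0.10.

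**Figure D1:**
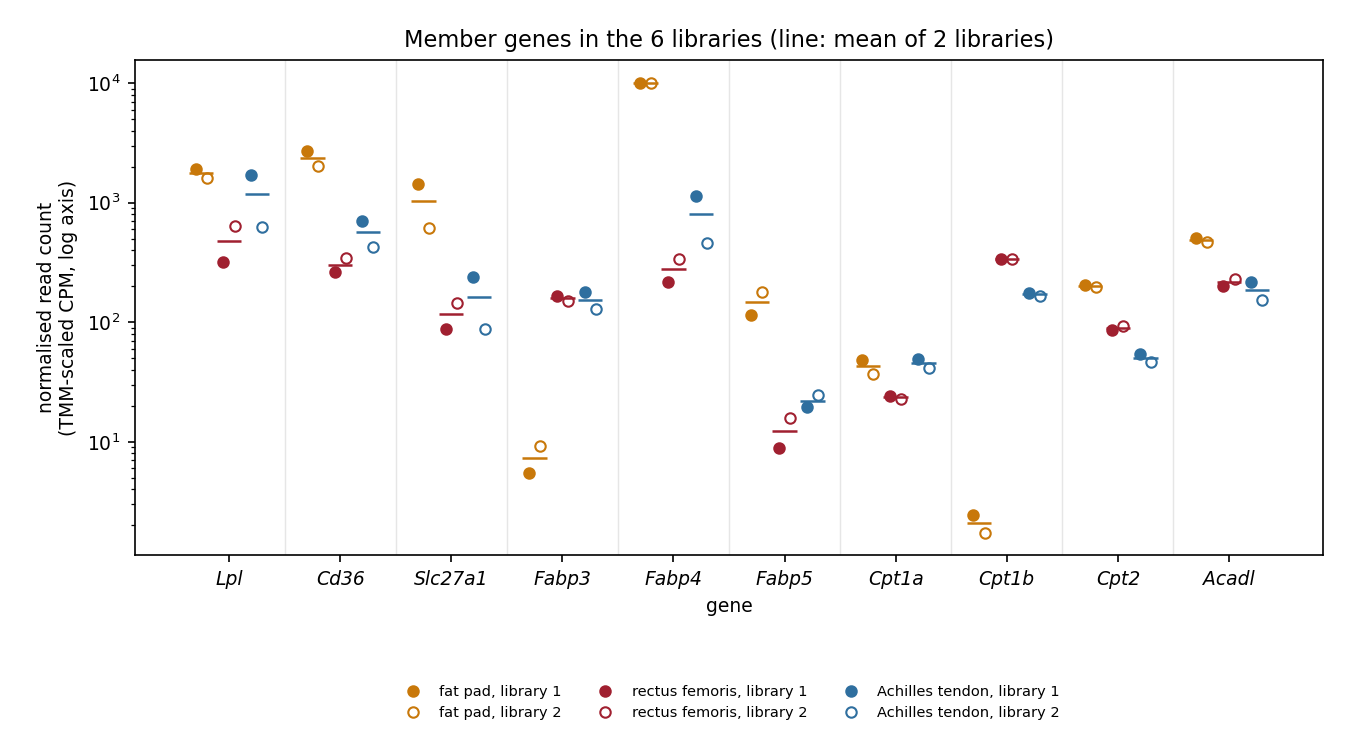
Normalised read count (TMM-scaled CPM, log axis) of each of the 10 genes in each library; filled points are library 1, open points library 2, and lines the mean of 2. The fat pad points lie highest for Fabp4, at 10128 and 10007 CPM, and lowest for Fabp3 and Cpt1b, where both stay below 10 CPM.

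Per length the set was led by a different binding protein in the fat pad than in muscle. Counts were divided by the exonic length of the gene and scaled to the same total in each library (a length-scaled level). Genes are compared with each other on this scale here unless another is named. The lead of Fabp3 in muscle rests on the lengths used, 823 bases for Fabp3 and 4489 for Fabp4. Before division by length, Fabp4, at 218 and 338 CPM, was above Fabp3, at 167 and 150.2 CPM, in muscle. In the deposited TPM Fabp3 led there too, at 896 and 572 against 310 and 558 for Fabp4. By length-scaled level, Fabp4 stood first in the fat pad at 5304 and 5331, followed by Cd36 at 1776 and 1359, without overlap between them. Acadl (mean 576), Slc27a1 (415) and Lpl (397) came next; the ranges of the 2 libraries of Acadl and Slc27a1 overlapped, as did those of Slc27a1 and Lpl. Cpt2 (200), Fabp5 (98.4), Fabp3 (21.2), Cpt1a (13.3) and Cpt1b (1.47) closed the order without overlap. In muscle Fabp3 stood first at 441 and 457, apart from all others. Acadl (252), Cpt1b (235), Cd36 (199), Fabp4 (147), Lpl (110) and Cpt2 (88.2) followed with each overlapping its neighbour. Slc27a1 (47.4) stood apart, and Fabp5 (8.21) and Cpt1a (7.21) overlapped at the bottom. In tendon the first 5, Fabp3 (859), Fabp4 (837), Cd36 (730), Lpl (527) and Acadl (424), each overlapped the next, so their order is not resolved. Cpt1b (230) overlapped Lpl and no other gene, then Slc27a1 (132) and Cpt2 (96.3) overlapped, as did Fabp5 (27.7) and Cpt1a (27.0). In the deposited TPM of the fat pad Acadl, at 768 and 726, was above Cd36, at 697 and 542, so the order of these 2 depends on the table read. The same holds in tendon, where the deposited TPM put Fabp3, at 3117 and 2572, above Fabp4, at 1299 and 1373, and Cd36, at 376 and 355, below Cpt1b, at 525 and 420, without overlap. The 10 genes together made up 1.86% and 1.60% (fat pad), 0.124% and 0.179% (muscle) and 0.592% and 0.253% (tendon) of all counts. Fabp4 alone gave 59.3% and 66.0% of the set's counts in the fat pad and 12.7% to 25.4% in the other 4 libraries.

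Against both muscle and tendon, the fat pad had more Cd36 and Slc27a1, the uptake genes, whereas Lpl, the release gene, was called higher against muscle but not against tendon. Lpl encodes lipoprotein lipase, which frees fatty acids from triglyceride-rich lipoproteins. Lpl stood at 1907 and 1606 CPM (fat pad), 320 and 639 (muscle) and 1715 and 631 (tendon). The fat pad libraries lay above both muscle libraries, and 1 tendon library lay within the fat pad range while the other lay with muscle. In the fat pad Lpl exceeded its muscle level 3.66-fold (log2 1.87 ± 0.55 SE, edgeR adjusted p = 0.0233). That call was lost without fat pad library 1 (log2 1.78, adjusted p = 0.0803), fat pad library 2 (1.99, adjusted p = 0.0649) or muscle library 1 (1.45, adjusted p = 0.135), with the direction kept. The difference of the fat pad from tendon was 0.58 ± 0.54 (adjusted p = 0.380) with all libraries, 1.52 (adjusted p = 0.0243) without tendon library 1 and 0.03 without tendon library 2. Limma on the deposited TPM gave the opposite direction there, -0.82 (adjusted p = 0.0518). The tendon to muscle difference was 1.29 ± 0.54 (adjusted p = 0.120).

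Cd36 encodes the fatty acid translocase of the plasma membrane. Its levels were 2712 and 2040 CPM (fat pad), 262 and 343 (muscle) and 709 and 424 (tendon). No library of 1 tissue overlapped another tissue. Cd36 in the fat pad exceeded muscle 7.86-fold (log2 2.98 ± 0.38, edgeR adjusted p = 0.000630) and tendon 4.20-fold (2.07 ± 0.37, adjusted p = 0.00285). Between tendon and muscle the difference was 0.91 ± 0.36 and was not called (adjusted p = 0.103).

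Slc27a1 encodes FATP1, a transport protein that also activates long-chain fatty acids. It stood at 1434 and 614 CPM (fat pad), 87.9 and 144 (muscle) and 240 and 88.2 (tendon). Both fat pad libraries were above the other 4, and muscle and tendon overlapped. Slc27a1 in the fat pad exceeded muscle 8.81-fold (log2 3.14 ± 0.63, edgeR adjusted p = 0.00465) and tendon 6.25-fold (2.64 ± 0.61, adjusted p = 0.00897). The difference from tendon was 3.58 without tendon library 1 and 1.98 without fat pad library 1, and that from muscle was 2.44 without fat pad library 1, all still called. Tendon over muscle was 0.50 ± 0.58 (adjusted p = 0.550), and -0.41 without tendon library 1. Within the uptake genes, the length-scaled level of Cd36 exceeded that of Slc27a1 in every library, by 3.07 to 7.80 times (2.00 to 3.57 in the deposited TPM). The level of Lpl relative to Cd36 was 0.241 and 0.270 in the fat pad, below the 0.420 to 0.829 of the other 4 libraries. In the deposited TPM the same ratio was 0.800 and 0.896 (fat pad), 1.78 and 1.08 (muscle) and 2.64 and 2.38 (tendon), so the fat pad was again lowest, but Lpl was above Cd36 in the other 4 libraries.

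The 3 binding proteins split between the tissues. Fabp4 encodes the adipocyte form, Fabp3 the form of heart and skeletal muscle, and Fabp5 the epidermal form that adipocytes and macrophages also make. Fabp4 stood at 10128 and 10007 CPM (fat pad), 218 and 338 (muscle) and 1141 and 459 (tendon). No tissue overlapped another, and the tendon libraries were the most unequal pair. Fabp4 in the fat pad exceeded muscle 36.2-fold (log2 5.18 ± 0.60, edgeR adjusted p = 0.000385) and tendon 12.6-fold (3.65 ± 0.56, adjusted p = 0.00138), the latter being 4.50 without tendon library 1. The tendon to muscle difference was 1.53 ± 0.51 and did not pass (adjusted p = 0.0676). Capillary endothelium also makes Fabp4, and 10 endothelial markers summed to 596 and 478 CPM (fat pad), 587 and 728 (muscle) and 1136 and 1052 (tendon). Against muscle, 3 of these 10 markers were called higher and 5 lower in the fat pad, beside 29.8% and 29.6% of all genes. Against tendon, 2 were called higher and 7 lower, beside 27.2% and 31.4%. The part of endothelium in the Fabp4 differences was not tested.

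Fabp3 went the other way. It stood at 5.43 and 9.28 CPM (fat pad), 167 and 150.2 (muscle) and 180 and 128 (tendon). The fat pad libraries were far below the other 4, and muscle and tendon overlapped. In tendon, fast muscle markers summed to 16379 and 64485 CPM and slow muscle markers to 12832 and 6617 CPM. The part of muscle RNA in the tendon level of Fabp3 was not tested. Fabp3 in the fat pad was below muscle 21.5-fold (log2 -4.43 ± 0.34, edgeR adjusted p = 8.46e-05) and below tendon 20.9-fold (-4.38 ± 0.34, adjusted p = 0.000113). Between tendon and muscle the difference was -0.04 ± 0.30 (adjusted p = 0.931), 0.70 under total-count scaling and 1.98 with limma on the deposited TPM, the last with an adjusted p of 0.00559. Zcchc17 and Gm10570 cover 81 and 80 of the exonic bases of Fabp3 on the opposite strand in GENCODE M21, and no strand setting is given in the sources used here. Zcchc17 had 4906 and 7538 counts in the fat pad, where Fabp3 had 491 and 1044, so some of the few Fabp3 counts there are uncertain.

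Fabp5 stood at 115 and 180 CPM (fat pad), 8.85 and 15.7 (muscle) and 19.6 and 24.5 (tendon), with no overlap between tissues. It in the fat pad exceeded muscle 12.0-fold (log2 3.59 ± 0.37, edgeR adjusted p = 0.000222) and tendon 6.71-fold (2.75 ± 0.35, adjusted p = 0.000637). Tendon over muscle was 0.84 ± 0.33 (adjusted p = 0.104). Macrophages also make Fabp5. Their 10 markers summed to 1479 and 2282 CPM in the fat pad and to 256 to 352 in the other 4 libraries. Of these 10, 6 were called higher and 0 lower over muscle, and 7 higher and 1 lower over tendon. Of the 10 adipocyte markers, 9 were called higher and 1, Slc2a4, lower over muscle, and 6 higher and 1 lower over tendon. The part of either cell type in the Fabp5 difference was not tested. Of 7 epidermis markers, 5 were in the count tables and their sum was 9.49 to 17.2 CPM in every library, with Krt14 at 0 in all but tendon library 1.

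Per length, Fabp3 over Fabp4 was 0.00293 and 0.00506 (fat pad), 4.17 and 2.42 (muscle) and 0.858 and 1.52 (tendon). Fabp4 thus exceeded Fabp3 by 342 and 198 times in the fat pad and was below it in both muscle libraries, while the tendon libraries fell on either side of 1. In the deposited TPM, Fabp3 over Fabp4 was 2.89 and 1.03 in muscle and 2.40 and 1.87 in tendon, above 1 in all 4. By CPM, without division by length, Fabp4 was above Fabp3 in all 6 libraries. Fabp4 exceeded Fabp5 in all 6 libraries, by 14.9 to 69.7 times. The coding sequences of the 3 genes (396 to 405 bases in GENCODE M21) were 65.1% identical between Fabp3 and Fabp4, 60.5% between Fabp4 and Fabp5 and 56.5% between Fabp3 and Fabp5. The longest run of bases shared exactly by Fabp3 and Fabp4 was 14.

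**Figure D2:**
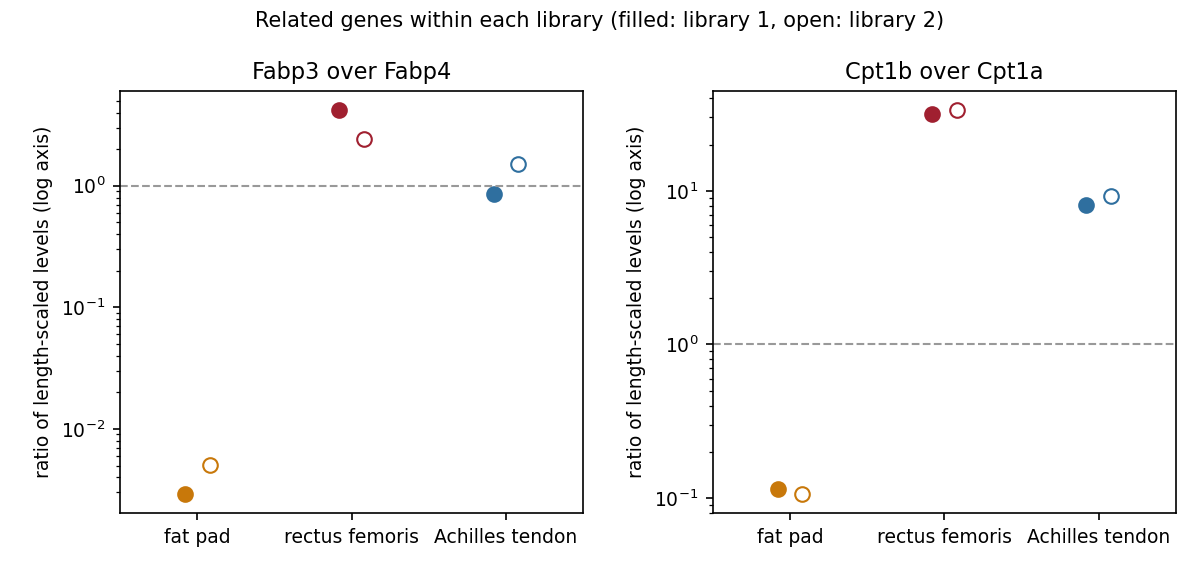
Ratio of length-scaled levels within each library (log axis; the dashed line marks equal levels) for Fabp3 over Fabp4 and Cpt1b over Cpt1a. Both ratios are lowest in the fat pad, at 0.00293 and 0.00506 and at 0.114 and 0.107, and highest in muscle, at 4.17 and 2.42 and at 31.7 and 33.4.

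The mitochondrial entry step showed the widest difference of the set. Cpt1b encodes the muscle form of carnitine palmitoyltransferase 1, the step that malonyl-CoA inhibits, and Cpt1a encodes the form of liver and many other tissues. Cpt1b stood at 2.46 and 1.74 CPM (fat pad), 339 and 338 (muscle) and 175 and 166 (tendon). The 3 tissues did not overlap and the libraries of each were close together. Cpt1b in the fat pad was below muscle 161-fold (log2 -7.33 ± 0.30, edgeR adjusted p = 3.64e-05) and below tendon 81.4-fold (-6.35 ± 0.28, adjusted p = 5.56e-05). It was 1.98-fold lower in tendon than in muscle (-0.99 ± 0.23, adjusted p = 0.0238), while limma on the deposited TPM gave 0.40 (adjusted p = 0.166). The level in tendon stood beside fast muscle markers of 16379 and 64485 CPM and slow muscle markers of 12832 and 6617 CPM.

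Counts of Cpt1b are uncertain because Gm44502, annotated as protein-coding on the same strand, covers 81.4% of its exonic bases. Its own counts were 114 and 25 (fat pad), 199 and 0 (muscle) and 1035 and 834 (tendon). With those of Gm44502 added, the level of Cpt1b was 3.72 and 1.97 CPM (fat pad), 344 and 338 (muscle) and 188 and 178 (tendon). The tissues were in the same order and still did not overlap.

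Cpt1a stood at 48.8 and 37.1 CPM (fat pad), 24.2 and 22.9 (muscle) and 49.4 and 41.0 (tendon). Fat pad and tendon overlapped, and both lay above muscle. Cpt1a exceeded its muscle level 1.82-fold in the fat pad (log2 0.86 ± 0.20, edgeR adjusted p = 0.00951) and 1.92-fold in tendon (0.94 ± 0.20, adjusted p = 0.0209). The first call was lost without muscle library 1 (log2 0.90, adjusted p = 0.0536) or muscle library 2 (0.82, adjusted p = 0.0708), where the value hardly moved, and with limma on the deposited TPM (0.21, adjusted p = 0.574). Fat pad over tendon was -0.08 ± 0.20 (adjusted p = 0.765), 0.03 with the DESeq2 test and with its size factors, and -1.17 (adjusted p = 0.00869) with limma on TPM. Per length, Cpt1b over Cpt1a was 0.114 and 0.107 (fat pad), 31.7 and 33.4 (muscle) and 8.03 and 9.19 (tendon). Cpt1a was thus the higher form in the fat pad, by 8.76 and 9.39 times, and the lower form in muscle and tendon. The coding sequences of Cpt1a and Cpt1b were 66.2% identical, with a longest shared run of 20 bases.

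Cpt2, the inner-membrane enzyme that hands the fatty acid back to coenzyme A, had no tissue overlap. It stood at 204 and 198 CPM (fat pad), 86.1 and 93.5 (muscle) and 54.7 and 46.3 (tendon). Cpt2 in the fat pad exceeded muscle 2.24-fold (log2 1.16 ± 0.19, edgeR adjusted p = 0.00174) and tendon 3.98-fold (1.99 ± 0.19, adjusted p = 0.000211). It was 1.78-fold lower in tendon than in muscle (-0.83 ± 0.19, adjusted p = 0.0230), while limma on the deposited TPM gave the opposite direction, 0.51 (adjusted p = 0.0469).

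Acadl encodes long-chain acyl-CoA dehydrogenase, which catalyses the first step of mitochondrial beta-oxidation. It stood at 509 and 465 CPM (fat pad), 202 and 228 (muscle) and 217 and 153 (tendon). Both fat pad libraries were above the other 4, and muscle and tendon overlapped. Acadl in the fat pad exceeded muscle 2.26-fold (log2 1.18 ± 0.25, edgeR adjusted p = 0.00619) and tendon 2.63-fold (1.40 ± 0.25, adjusted p = 0.00303). The first call was lost without muscle library 1 (log2 1.09, adjusted p = 0.0611), and the second value was -0.32 (adjusted p = 0.341) with limma on the deposited TPM. The tendon to muscle difference was -0.22 ± 0.25 (adjusted p = 0.542), 0.52 under total-count scaling and 1.24 with limma on TPM. Per length, Acadl over Cpt2 was 2.80 to 2.97 in the 4 fat pad and muscle libraries and 4.73 and 3.94 in tendon.

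With limma on the deposited TPM several of these differences changed in size. For fat pad over tendon, Cd36 was 0.75 (adjusted p = 0.0140), Slc27a1 0.99 (adjusted p = 0.0355), Cpt2 0.44 (adjusted p = 0.0455), Fabp4 2.53 and Fabp5 1.79, all smaller than by counts, while Fabp3 at -6.34 and Cpt1b at -7.42 were larger. For fat pad over muscle, Cd36 was 2.07, Slc27a1 2.21, Fabp4 4.21 and Fabp5 2.56. Each of these values was still called in the same direction.

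**Figure D3:**
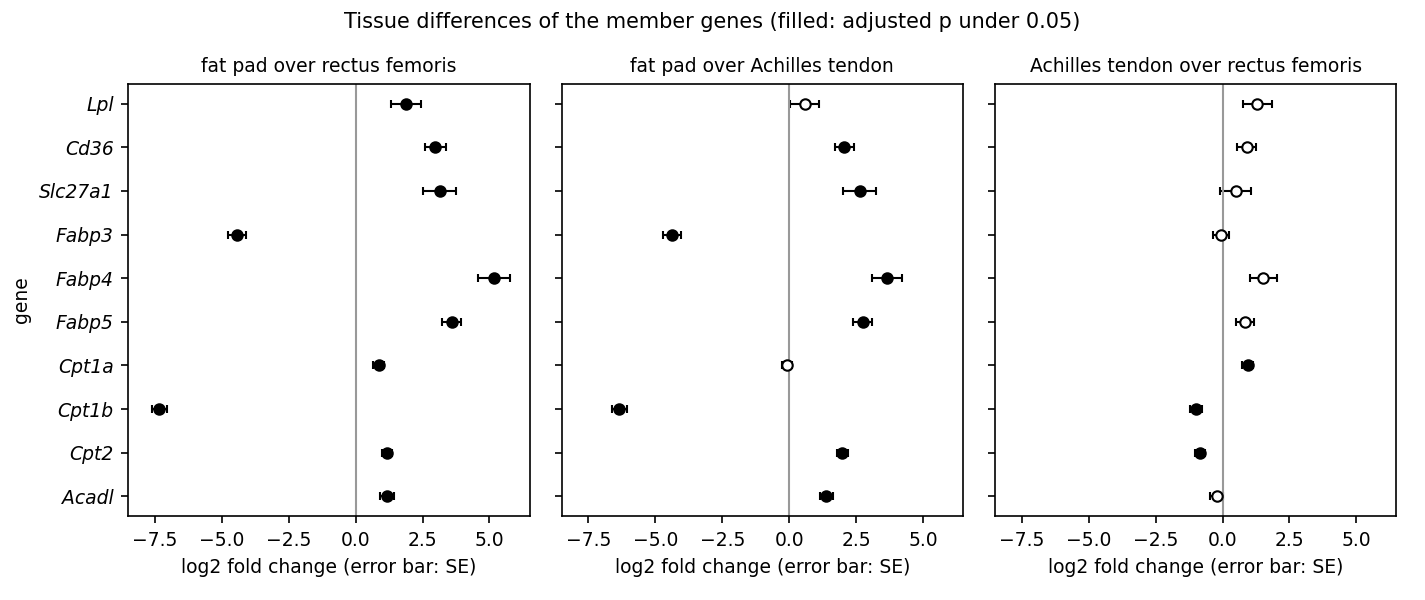
Log2 fold change of each gene in the 3 tissue comparisons (horizontal axis; error bars are the SE of the edgeR fit; filled points have an adjusted p under 0.05). Fabp3 and Cpt1b lie at -4.43 and -7.33 for fat pad over muscle while the other 8 genes lie between 0.86 and 5.18, and for tendon over muscle only Cpt1a, Cpt1b and Cpt2 are filled.

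Tendon and muscle differed in few of the 10 genes. Cpt1a was higher and Cpt1b and Cpt2 were lower in tendon with all 6 libraries. Without muscle library 1 or muscle library 2 edgeR called 0 of the 10 genes (3 and 6 had an unadjusted p under 0.05, against 7 with all libraries), and over all genes the calls fell from 4127 to 43 and 19. The 3 differences themselves hardly moved in these fits, at 0.99 and 0.91 for Cpt1a, -0.98 and -0.98 for Cpt1b, and -0.88 and -0.76 for Cpt2. Without tendon library 1 only Cpt2 was called, and without tendon library 2 there were 5: Cd36 (1.24), Lpl (1.84), Fabp4 (2.04), Cpt1a and Cpt1b. Under total-count scaling 5 were called, all higher, and Cpt1b (-0.26) and Cpt2 (-0.10) were not. With limma on the deposited TPM 8 were called, all higher, and the DESeq2 test called 6, of which 4 were higher and 2 lower. The direction of Fabp3 and Acadl flipped between TMM and total-count scaling, and with limma on TPM those of Fabp3, Acadl, Cpt1b and Cpt2 did.

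Around these genes, 93 others of the same pathways were grouped into 8 lists, and 86 of them were tested. In the fat pad, 29 were higher and 26 lower than in muscle (33.7% and 30.2%, beside 29.8% and 29.6% of all genes). Against tendon, 34 were higher and 20 lower (39.5% and 23.3%, beside 27.2% and 31.4%). In tendon, 4 were higher and 16 lower than in muscle (4.65% and 18.6%, beside 13.3% and 12.7%).

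Partners of lipoprotein lipase were mostly higher in the fat pad. Of 9 tested, 6 were higher and 1 lower than in muscle, with the same counts against tendon. Angptl4, an inhibitor of the lipase, stood at 367 ± 185 CPM (SD, n = 2) (fat pad), 15.6 ± 5.17 (muscle) and 60.7 ± 51.7 (tendon) (log2 4.56 ± 0.75 SE over muscle, 2.60 ± 0.69 over tendon). Gpihbp1, which carries the lipase across the capillary wall, was higher by 2.83 ± 0.24 and 2.74 ± 0.24. Vldlr, a receptor for triglyceride-rich particles, was the gene lower in the fat pad, at -2.63 ± 0.20 and -1.65 ± 0.19. Sel1l, which helps the lipase to leave the endoplasmic reticulum, was not called in either, at -0.11 and -0.23.

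Genes of transport and activation were divided. Of 12 tested, 3 were higher and 5 lower against muscle, and 2 and 5 against tendon. Acsl1, the acyl-CoA synthetase that is abundant in fat, stood at 1328 ± 254 CPM (fat pad), 405 ± 118 (muscle) and 309 ± 121 (tendon). In the fat pad Acsl1 was higher by 1.71 ± 0.38 over muscle and 2.10 ± 0.39 over tendon. Acsl5 was higher by 1.96 ± 0.19 over muscle and 1.34 ± 0.19 over tendon, and Cav1, a caveolae protein, by 1.86 ± 0.33 over muscle. Got2, the mitochondrial aspartate aminotransferase that has also been described as a fatty acid binding protein of the membrane, was lower, at -3.94 ± 0.22 and -3.41 ± 0.22. Acsl6 was lower, at 0.115 ± 0.0247 CPM in the fat pad against 52.9 ± 5.10 in muscle (log2 -8.84 ± 0.45). Acsl4 was lower in both comparisons, at -2.16 ± 0.18 over muscle and -1.36 ± 0.18 over tendon.

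Of 9 other binding proteins listed, 4 were tested and 2 were called, both higher in the fat pad and in both comparisons. Dbi, the acyl-CoA binding protein, stood at 3286 ± 760 CPM (fat pad), 86.7 ± 2.54 (muscle) and 96.8 ± 61.8 (tendon) (log2 5.24 ± 0.56 and 5.08 ± 0.56). Scp2, sterol carrier protein 2, was higher by 2.55 ± 0.25 and 3.16 ± 0.26.

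The carnitine shuttle and the enzymes that set malonyl-CoA gave 2 higher and 4 lower of 9 in the fat pad against muscle, and 1 higher and 2 lower against tendon. Slc25a20, the carrier that moves acylcarnitines through the inner membrane, was higher by 0.75 ± 0.19 and 1.38 ± 0.19. Acacb, the acetyl-CoA carboxylase at the mitochondrial surface, was lower, at -3.30 ± 0.26 and -2.30 ± 0.25, as was Prkaa2, a catalytic subunit of AMP-activated kinase, at -5.82 ± 0.53 and -4.02 ± 0.49. Acaca, the cytosolic carboxylase, was not called, at 1.20 ± 0.75 and 1.31 ± 0.75. In this list 4 of 9 genes were lower in tendon than in muscle and 1 was higher; the lower ones included Prkaa2, at -1.80 ± 0.44, and Crat, carnitine acetyltransferase, at -1.12 ± 0.24.

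Mitochondrial beta-oxidation was mixed at the level of single enzymes. Of 19 tested, against muscle 8 were higher and 2 lower (median log2 0.15, beside 0.14 over all genes), and against tendon 12 were higher and 2 lower (0.90, beside -0.01). Etfb, a subunit of the flavoprotein that takes up the electrons, was higher by 2.08 ± 0.22 and 2.75 ± 0.22, and Eci1, an enoyl-CoA isomerase, by 1.46 ± 0.21 and 2.02 ± 0.21. The lower genes were Hadha and Acads in both comparisons. Hadha, the alpha subunit of the trifunctional protein, stood at 140 ± 2.87 CPM (fat pad), 409 ± 16.3 (muscle) and 278 ± 23.6 (tendon) (-1.55 ± 0.21 and -0.99 ± 0.21). Hadhb, the beta subunit of the same protein, stood at 253 CPM (fat pad), 119 (muscle) and 75.4 (tendon), and was higher in the fat pad by 1.09 and 1.75 (named after its values were seen). Acads, the short-chain dehydrogenase, was lower, at -2.04 ± 0.19 and -1.60 ± 0.19.

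Peroxisomal beta-oxidation gave 2 higher and 2 lower of 11 against muscle, and 5 higher and 0 lower against tendon. Acaa1a, a thiolase, was higher than in muscle by 1.02 ± 0.18. Acox3 (-0.50 ± 0.18) and Abcd3 (-0.67 ± 0.21) were lower than in muscle and not called against tendon. Abcd2, which imports very long acyl chains, was not called against muscle (1.15 ± 0.52) and was higher than in tendon by 1.83 ± 0.53, as was Ehhadh, the bifunctional enzyme of peroxisomes, by 1.60 ± 0.47.

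PPAR receptors and their partners were mostly lower in the fat pad. Of 13 tested, 10 were lower and 2 higher than in muscle (median log2 -1.99), and 8 were lower and 2 higher than in tendon (-1.80). Pparg, the receptor of adipocytes and itself 1 of the adipocyte markers, stood at 205 ± 40.0 CPM (fat pad), 7.87 ± 2.26 (muscle) and 20.5 ± 17.1 (tendon) (4.70 ± 0.66 and 3.32 ± 0.62). Ppard, the receptor prominent in muscle, stood at 1.45 ± 0.112 CPM (fat pad), 40.0 ± 0.363 (muscle) and 31.5 ± 0.663 (tendon) (-4.78 ± 0.21 and -4.44 ± 0.20). Esrra and Esrrg are estrogen-related receptors of oxidative metabolism. Esrra was lower against muscle, at -3.09 ± 0.18. Esrrg was lower against both, at -3.94 ± 0.61 over muscle and -5.53 ± 0.65 over tendon. Nrip1, a corepressor, was higher by 1.27 ± 0.42 and 1.19 ± 0.42.

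Other PPAR targets gave 4 higher and 2 lower of 9 in both fat pad comparisons. Cidea and Plin2, proteins of the lipid droplet, were higher than in muscle by 7.70 ± 0.70 and 3.75 ± 0.38 and higher than in tendon by 7.44 ± 0.69 and 4.05 ± 0.38. Pdk4, the kinase that turns off pyruvate dehydrogenase, was lower, at -4.34 ± 0.28 and -3.44 ± 0.27, as was Ucp3, the uncoupling protein of muscle, at -3.62 ± 0.61 and -1.66 ± 0.56. Ucp1, the defining gene of brown fat, stood at 1.46 CPM or less in every library. All of these pathway calls had edgeR adjusted p-values under the threshold, and each list counts against the percentages of all genes given above. Between tendon and muscle, 1 of 9 lipase partners, 4 of 12 transport genes, 3 of 19 mitochondrial, 1 of 11 peroxisomal, 3 of 13 PPAR and 3 of 9 target genes were called. Of these 15, Slc27a3, Esrrb and Aqp7 were higher in tendon and the others lower, among them Acsl3, an acyl-CoA synthetase (-1.11 ± 0.26), Rxrg, a partner of the PPAR receptors (-2.17 ± 0.54), Acot13 (-1.36 ± 0.18), Acad11 (-1.49 ± 0.32), Crot (-1.36 ± 0.18) and Lpin1 (-1.79 ± 0.22). Not called between tendon and muscle were Slc22a5, the carnitine transporter of the plasma membrane (0.36 ± 0.25), Prkaa1, the other catalytic subunit of AMP-activated kinase (0.31 ± 0.20), Acaa2, a mitochondrial thiolase (-0.34 ± 0.21), Etfa, the partner subunit of Etfb (-0.44 ± 0.22), and Pex5, the import receptor of peroxisomes (0.05 ± 0.22).

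**Figure D4:**
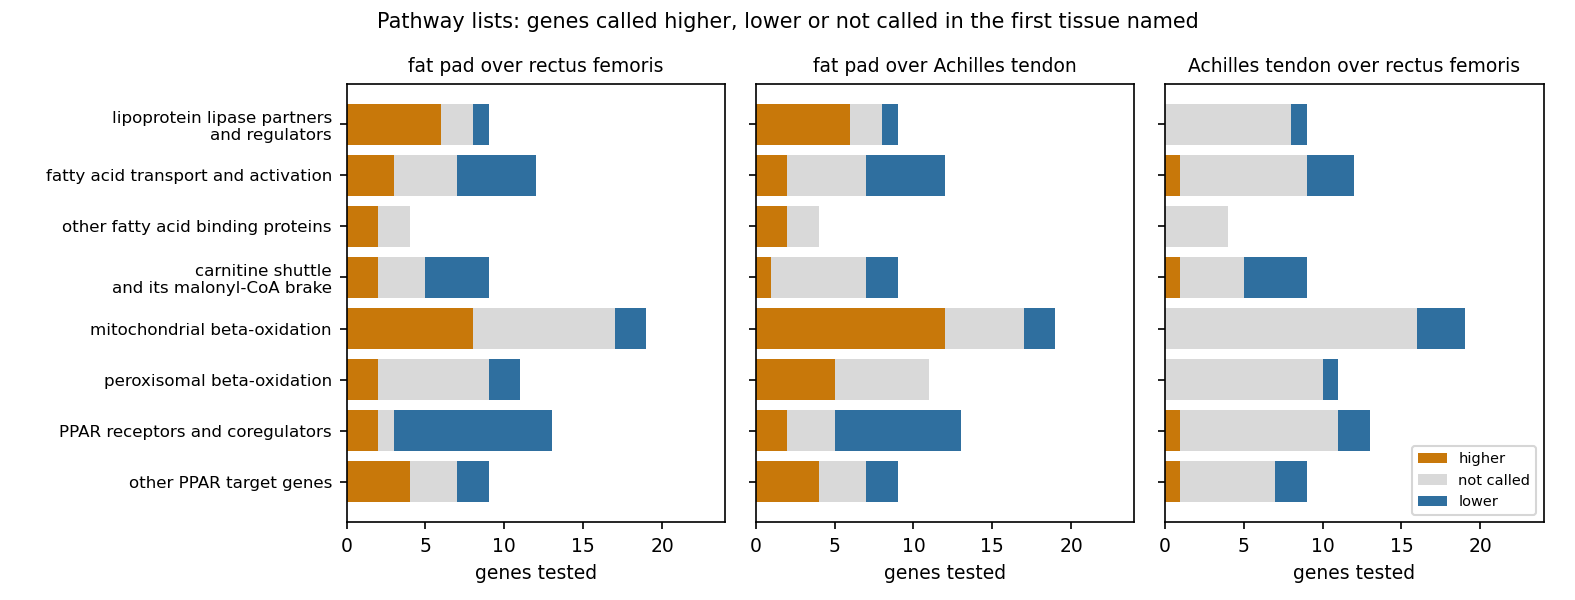
Number of genes tested in each of 8 pathway lists (horizontal axis) that were called higher, called lower or not called in the first tissue named. The list of PPAR receptors and coregulators has 10 of 13 genes lower against muscle, and mitochondrial beta-oxidation has 12 of 19 higher in the fat pad than in tendon.

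The 2 libraries of each tissue were set against each other as the ratio of the second to the first, with no test, since each side is 1 library. Among genes with at least 100 counts, 4.04% were at least 2-fold higher and 6.30% at least 2-fold lower in fat pad library 2, 1.51% and 1.28% in muscle library 2, and 3.99% and 7.25% in tendon library 2. Beside this, the genes of the set past 2-fold numbered 1 (fat pad), 0 (muscle) and 3 (tendon), each lower in library 2. In the fat pad this gene was Slc27a1, with a log2 ratio of -1.22 (95% counting interval -1.24 to -1.21), and the deposited TPM gave -1.17. The other fat pad ratios ran from -0.49 for Cpt1b to 0.77 for Fabp3, while the erythroid and neutrophil markers had medians of -1.77 and -2.76. The median ratio of the 10 adipocyte markers was -0.22 there.

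In tendon, Lpl was 2.72-fold lower in library 2 (log2 -1.44, interval -1.46 to -1.43), Slc27a1 2.72-fold lower (-1.44, -1.48 to -1.40) and Fabp4 2.48-fold lower (-1.31, -1.33 to -1.29). Of the 10 genes 9 were lower and Fabp5 was higher, at 0.32, with a median of -0.50 beside 0.02 over all genes. The 10 adipocyte markers moved in the same direction, 9 of 10 being lower, with a median ratio of -3.04, whereas endothelial markers had a median of 0.04 and fast muscle markers of 1.38. Slow muscle markers were lower in 8 of 8 cases, with a median of -0.90. Their part in the ratios of Lpl, Slc27a1 and Fabp4 was not tested. Cpt1b was at -0.07 in tendon, at -0.24 under total-count scaling and at -0.32 in the deposited TPM. The deposited TPM gave -0.23 for Lpl and Slc27a1 and 0.08 for Fabp4, so none of the 3 passed 2-fold there. In the TPM 7 of the 10 genes were lower and 3 higher.

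In muscle, 7 of the 10 genes were higher in library 2 and 3 were lower, with a median of 0.28 beside 0.02 over all genes. Lpl had the highest ratio, 0.99 (interval 0.96 to 1.02), which passed 2-fold under total-count scaling at 1.09. The deposited TPM gave -0.95 for Lpl, the opposite direction, and reversed the tally, with 3 genes higher and 7 lower. Fabp5 (0.82), Slc27a1 (0.72), Fabp4 (0.63) and Cd36 (0.39) came next, and Cpt1b was at -0.01. Adipocyte markers had a median ratio of 1.12 in this pair, with 1 of 10 lower, and their part in these ratios was not tested. Across genes, the log2 ratios from counts and from TPM correlated at 0.88 (fat pad), -0.16 (muscle) and -0.21 (tendon), over 11798 to 13293 genes that are not independent. The deposited TPM of muscle and of tendon thus did not follow the counts of the same-named libraries, and why was not tested. Differences between these libraries, and the fits by limma on TPM, therefore depend on which deposited table is read, not on scaling alone.

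**Figure D5:**
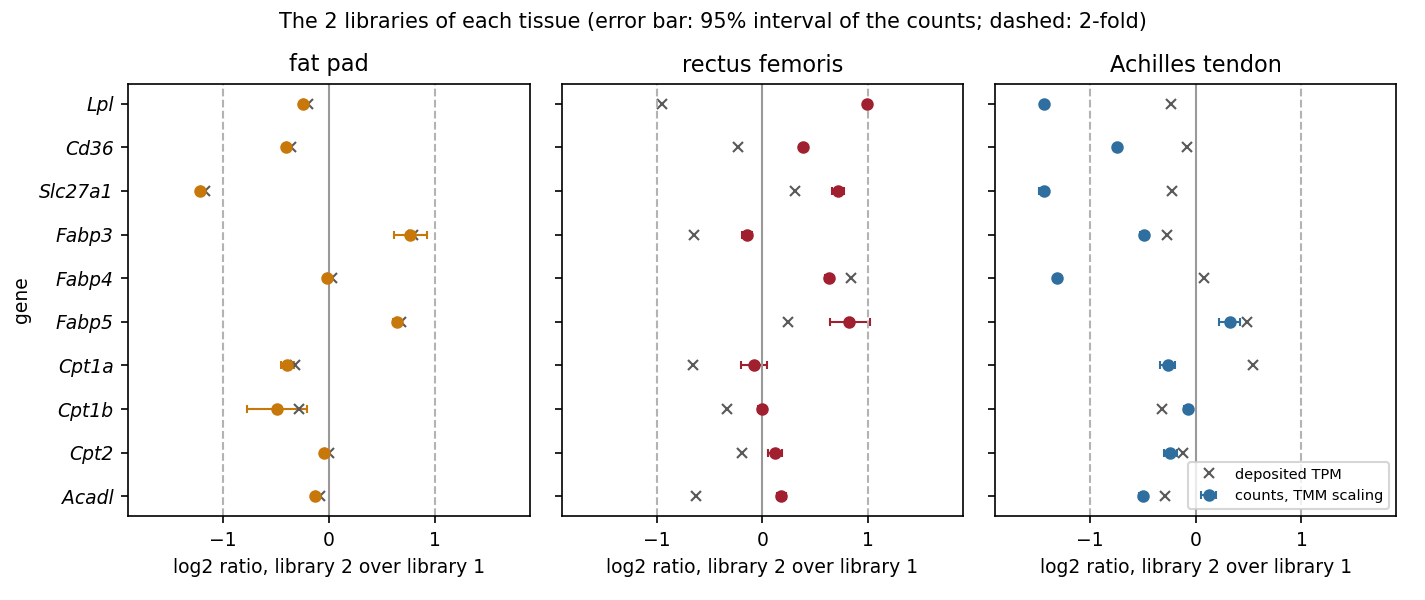
Log2 ratio of library 2 over library 1 in each tissue (points from TMM-scaled counts with 95% intervals that cover counting error only; crosses from the deposited TPM; dashed lines mark 2-fold). Lpl, Slc27a1 and Fabp4 lie beyond the line at -1.44, -1.44 and -1.31 in tendon by counts, while their crosses lie between -0.23 and 0.08.

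For each of the 10 genes, the 2 genes most alike over the 6 libraries were found by the Pearson correlation of log2 CPM among 5209 genes, with 2 libraries for each of 3 tissues. The correlations ran from 0.988 to 1.000. Atp6v1a and Opn3 were most like Cd36, Cebpa and Pde3b most like Lpl, and Cyp2e1 and Slc1a3 most like Slc27a1. For the binding proteins they were Nacc1 and Mettl21c for Fabp3, Asns and Dennd6a for Fabp4, and Eif1a and Cxcl16 for Fabp5. Shc1 and Strn4 were most like Cpt1a, Camta2 and Synpo2 most like Cpt1b, Bckdhb and Hibch most like Cpt2, and Bzw1 and Slc31a1 most like Acadl. Cebpa, a transcription factor of adipocytes, stood at 149 and 156 CPM (fat pad), 12.3 and 27.2 (muscle) and 147 and 23.5 (tendon), sharing with Lpl the gap between the tendon libraries. Cyp2e1, a cytochrome P450, stood at 6029 and 1696 CPM (fat pad), 27.1 and 63.2 (muscle) and 244 and 22.2 (tendon), sharing with Slc27a1 a lower second library in both the fat pad and tendon. Both genes were chosen by correlation over these same libraries, so such shared gaps follow in part from the choice.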

How the data were processed

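The authors deposited 1 table of raw whole-number counts and 1 of TPM (length- and depth-scaled abundance) for each tissue, by Ensembl gene. Bowtie2, RSEM 1.3.1, DESeq2 1.4.5 and GRCm39 are listed in the submitters' processing notes, without roles; annotation and strand setting: not given in the sources used here. All per-sample columns were used.

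The tissue comparisons used edgeR 4.0.16 (R 4.3.3) on the counts of 6 libraries (TMM scaling, filterByExpr, a tissue term, the quasi-likelihood F test, Benjamini-Hochberg over 15856 genes, threshold 0.05; biological coefficient of variation 0.336). An SE is the log2 fold change over the root of F. The scripts were tested on simulated data. Within a tissue, library 2 was set against library 1 (prior count 2, at least 100 counts in the higher library, exact conditional binomial 95% intervals, which cover counting error only). Length-scaled levels used exonic lengths of GENCODE M21 (GRCm38), from which no coordinate is printed; promoters are RefSeq's on GRCm38.p6, another build than the files'. Libraries of a tissue differed by more than sampling noise.

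Alternatives were DESeq2 1.42.0 and its size factors, total-count scaling, no filter, only 2 tissues, a replicate block, limma 3.58.1 on log2(TPM + 1), each library left out, a prior count of 0.5 and, added after seeing the data, crossed pairing. All 10 members are named. From 8 pathway lists, the genes at each end by log2 fold change (2 a side) with at least 20 CPM in the higher tissue are named, with a few others for context. The likeness search kept genes with at least 50 CPM in the higher tissue. The 10 marker lists were adipocyte, fast muscle, slow muscle, endothelial, macrophage, tenocyte, epidermis, brown and beige adipocyte (7 genes, 492 and 696 CPM in the fat pad and 118 to 296 elsewhere), erythroid and neutrophil. Members, lists and tests were chosen with earlier results of these data known.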

Additional observations from a re-analysis of the deposited data

How the results depend on the processing

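Of the counts of members called, those for fat pad over muscle and fat pad over tendon stayed within 1.5 times under every alternative run: 7 to 10 and 8 to 9, and 5 higher and 3 lower for fat pad over tendon with limma on TPM. For tendon over muscle 3 members were called, against 5 with total counts, 6 with the DESeq2 test, 8 with limma on log2(TPM + 1), and 0 to 5 when single libraries were left out. The number of all genes called there, 4127, was 6367 with total counts and 19 to 4380 with single libraries left out, the lowest counts, 43 and 19, being those without muscle library 1 and 2, and 1816 without tendon library 1; a lone library was then taken to vary like the other tissues. Between libraries, the count past 2-fold was 1 in muscle with total counts (main count 0) and 0 in tendon with the deposited TPM (main count 3), where Fabp4 was 0.080. Reversed values with limma on TPM were -0.82 for Lpl and -0.32 for Acadl in fat pad over tendon, and 1.98 for Fabp3, 0.40 for Cpt1b, 0.51 for Cpt2 and 1.24 for Acadl in tendon over muscle. Cpt1a in fat pad over tendon was 0.031 with DESeq2 size factors and 0.031 with the DESeq2 test, and -0.22 to 0.11 with single libraries left out. In tendon over muscle, Fabp3 was 0.70 with total counts, 0.012 with only 2 tissues and -0.32 to 0.19 with single libraries left out; Acadl was 0.52 with total counts and -0.50 to 0.018; Slc27a1 was -0.41 to 1.05. The cause of these changes was not tested.

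Same-numbered libraries deviated with correlations of -0.03 (fat pad and muscle), 0.00 (fat pad and tendon) and -0.17 (muscle and tendon), so the numbers are not taken as pairs. A fit with the replicate block called 3 members for tendon over muscle, gaining Fabp5 (adjusted p = 0.0411) and losing Cpt2 (0.0537), and 2759 genes; it called 10 and 8 members in the other comparisons. Crossed pairing called 3 members and 3736 genes. The lowest member level, Cpt1b in the fat pad, rested on 222 and 196 counts.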
